A study of Homo sapiens with 6 samples.

Results

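The peaks described here are sites of RNA polymerase II (Pol II) ChIP enrichment that lay away from every annotated gene in SK-Hep1, an established human line that came from a liver adenocarcinoma. A peak was taken when its summit on chromosomes 1 to 22 or X fell outside every gene of any type and more than 5 kb from any gene start or end in the GENCODE annotation of the hg19 build. The rule used positions only, not height. It found 976 of 28949 peaks in the list for siME2+αKG cells, 1038 of 29172 in the list for siME2 cells and 1226 of 31690 in the list for siCtrl cells, 3240 of 89811 peaks in all. Peaks of the 3 lists that overlapped were merged into 1605 loci.

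The siME2+αKG cells received siRNA against ME2, the mitochondrial malic enzyme, which makes pyruvate from malate, and were given α-ketoglutarate, a metabolite of the citric acid cycle that is also a cofactor of chromatin demethylases. The siME2 cells received the siRNA against ME2 without the metabolite, and the siCtrl cells received a control siRNA. The dose and duration of α-ketoglutarate were not given in the sources used here. There was 1 ChIP and 1 input library per condition, 6 samples in all, and the inputs entered through the authors' peak calling. The titles of the siME2 and siCtrl libraries carry the number 2 and those of siME2+αKG carry none, so whether the 3 conditions were prepared together is not known, and every comparison with siME2+αKG is subject to that. With 1 library per condition there was no test between conditions, and each value below describes that library. Shares and ratios carry exact 95% Clopper-Pearson intervals that cover counting error only, and reads from PCR-amplified libraries are not independent molecules. A lower height from fewer cells with Pol II at a site and from less Pol II per cell cannot be told apart.

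Pol II away from genes is known from enhancers, where it makes short, unstable enhancer RNAs in both directions, and from promoters of transcripts that a given annotation does not hold. Promoters of widely used genes usually lie in CpG islands, stretches rich in G, C and the dinucleotide CG that most of the genome has lost. Enhancers are more often poor in CG and are bound by factors such as AP-1, the dimer of FOS and JUN proteins, and TEAD, the DNA-binding partner of the Hippo pathway coactivator YAP.

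The sequences of 4 tall loci show the CG-rich and the CG-poor kinds side by side. Each is the 201 bp centred on a summit of the locus, which need not be the siCtrl summit. The letters are from the plus strand of hg19, with every CG in capitals. The DDIT4 locus, chr10:74057560-74057760, lay 23.9 kb downstream of the start of DDIT4, an inhibitor of mTORC1 signalling, and held 20 CG. The LSM14A locus, chr19:34625563-34625763, lay 37.7 kb upstream of LSM14A, a processing-body protein, and also held 20 CG. The SMURF2 locus, chr17:62702551-62702751, lay 44.2 kb upstream of SMURF2, a ubiquitin ligase of TGF-β signalling, and held 2 CG. The CCN1 locus, chr1:86094851-86095051, lay 47.8 kb downstream of the start of CCN1, a secreted matrix protein and a YAP target gene, and held 1 CG. The SMURF2 and CCN1 loci were chosen after their values were seen.
DDIT4 locus: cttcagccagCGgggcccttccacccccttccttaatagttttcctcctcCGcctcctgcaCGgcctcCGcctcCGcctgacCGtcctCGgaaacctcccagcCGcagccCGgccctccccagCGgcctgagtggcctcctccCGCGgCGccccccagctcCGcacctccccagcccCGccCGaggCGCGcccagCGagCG
LSM14A locus: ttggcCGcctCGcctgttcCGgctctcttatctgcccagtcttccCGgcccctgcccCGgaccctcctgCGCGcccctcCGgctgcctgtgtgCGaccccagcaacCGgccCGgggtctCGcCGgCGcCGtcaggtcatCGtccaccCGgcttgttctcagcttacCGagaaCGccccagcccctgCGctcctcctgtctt
SMURF2 locus: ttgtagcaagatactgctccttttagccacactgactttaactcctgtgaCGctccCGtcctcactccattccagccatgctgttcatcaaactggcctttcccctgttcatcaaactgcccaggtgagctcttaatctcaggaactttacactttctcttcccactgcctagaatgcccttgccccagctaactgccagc
CCN1 locus: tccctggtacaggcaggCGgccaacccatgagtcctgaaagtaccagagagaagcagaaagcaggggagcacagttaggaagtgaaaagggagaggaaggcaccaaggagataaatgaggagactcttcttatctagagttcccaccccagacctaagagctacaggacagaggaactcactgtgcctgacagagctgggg

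A further 4 loci show the letters of the AP-1 motif, TGANTCA, in and beside the summit. The motif reads the same on both strands apart from its middle base. Each is 300 bp of the plus strand of hg19 with the matches in capitals. These loci come from those named by their height ratio or by their absence from a list, described further on. From those they were picked to show matches after their values were seen, and each window was placed to take in matches. They do not stand for distal loci as a whole, for which shares with a match are given further on. Distances here run from the summit to the first, leftmost base of each match. The FAT1 locus, chr4:187766369-187766668, held matches 108 bp to the left and 136 bp to the right of its summit. The ARHGAP26 locus, chr5:142623932-142624231, held a match 169 bp to the right. The CTBP2 locus, chr10:126920174-126920473, held matches 144 and 110 bp to the left. The TUBB2B locus, chr6:3209611-3209910, held matches 185, 39 and 3 bp to the left.
FAT1 locus: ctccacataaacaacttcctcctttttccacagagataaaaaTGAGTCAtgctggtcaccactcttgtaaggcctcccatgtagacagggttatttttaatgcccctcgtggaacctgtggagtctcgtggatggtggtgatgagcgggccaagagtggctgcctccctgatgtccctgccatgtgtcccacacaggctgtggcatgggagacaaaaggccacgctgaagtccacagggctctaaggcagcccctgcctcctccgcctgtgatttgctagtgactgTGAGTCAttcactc
ARHGAP26 locus: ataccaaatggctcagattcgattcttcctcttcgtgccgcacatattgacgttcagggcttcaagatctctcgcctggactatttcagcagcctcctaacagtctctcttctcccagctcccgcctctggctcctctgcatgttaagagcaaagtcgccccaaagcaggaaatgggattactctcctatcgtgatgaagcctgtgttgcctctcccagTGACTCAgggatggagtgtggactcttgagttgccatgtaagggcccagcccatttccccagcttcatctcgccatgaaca
CTBP2 locus: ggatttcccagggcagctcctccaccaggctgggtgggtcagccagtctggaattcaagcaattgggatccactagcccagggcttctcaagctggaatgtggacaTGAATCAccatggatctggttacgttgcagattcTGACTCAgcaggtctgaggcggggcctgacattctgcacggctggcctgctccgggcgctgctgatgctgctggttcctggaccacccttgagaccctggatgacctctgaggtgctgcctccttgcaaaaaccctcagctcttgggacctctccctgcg
TUBB2B locus: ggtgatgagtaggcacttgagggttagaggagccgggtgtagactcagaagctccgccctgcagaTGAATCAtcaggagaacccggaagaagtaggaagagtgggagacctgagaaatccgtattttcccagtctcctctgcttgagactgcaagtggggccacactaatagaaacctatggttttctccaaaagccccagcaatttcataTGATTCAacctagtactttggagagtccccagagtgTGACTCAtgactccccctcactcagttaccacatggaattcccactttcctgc

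The authors' filtered ChIP libraries held 12955596 tags in siME2+αKG, 10445326 in siME2 and 13006504 in siCtrl, and the lowest listed summits held 8, 7 and 8 fragments in the same order. Height is given as extended ChIP fragments over the summit, or as those fragments per 1000000 filtered tags. The labelled cell type was set against promoter peaks of marker genes. Among 16 hepatocyte markers a promoter peak was listed in each library for 1, CEBPA, and for no other, ALB, APOA1, TTR and HNF4A included. Of 21 mesenchymal markers 14 had a promoter peak in siME2+αKG (66.7%), 15 in siME2 (71.4%) and 16 in siCtrl (76.2%), not far from the 61.0%, 61.6% and 63.1% of all protein-coding genes. Of 9 annotated endothelial markers 1, FLI1, had a promoter peak in each library, and CDH5, KDR and VWF had none. Of 6 leukocyte markers 0 had one in any library.

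Distal peaks were a small part of each list, lower than promoter peaks and slightly higher than the other peaks away from promoters. Their share was 3.37% in siME2+αKG (95% interval 3.17 to 3.59), 3.56% in siME2 (3.35 to 3.78) and 3.87% in siCtrl (3.66 to 4.09), and they covered 642, 616 and 820 kb in that order. The median distal summit held 18 fragments in siME2+αKG (quartiles 14 and 26), 15 in siME2 (12 and 23) and 17 in siCtrl (13 and 25). Peaks at promoters had medians of 41, 34 and 43 fragments, peaks inside genes 16, 13 and 15, and peaks outside genes but within 5 kb of one 17, 14 and 16. Per 1000000 tags the distal medians were 1.39, 1.44 and 1.31, the promoter medians 3.16, 3.26 and 3.31, and those inside genes 1.23, 1.24 and 1.15. Median widths were 420, 410 and 436 bp for distal peaks, 849, 785 and 931 bp at promoters and 436, 391 and 419 bp inside genes, so the distal widths were close to those inside genes.

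A minority of distal peaks was as tall as a typical promoter peak. Summits of at least 50 fragments numbered 68 in siME2+αKG (6.97%), 46 in siME2 (4.43%) and 85 in siCtrl (6.93%). The shares among all other peaks were 22.2%, 16.6% and 23.5%. Widths of at least 2 kb were found for 45 distal peaks in siME2+αKG, 28 in siME2 and 56 in siCtrl. The siME2 library was the shallowest, so a fixed number of fragments is a higher bar there.

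**Figure D1:**
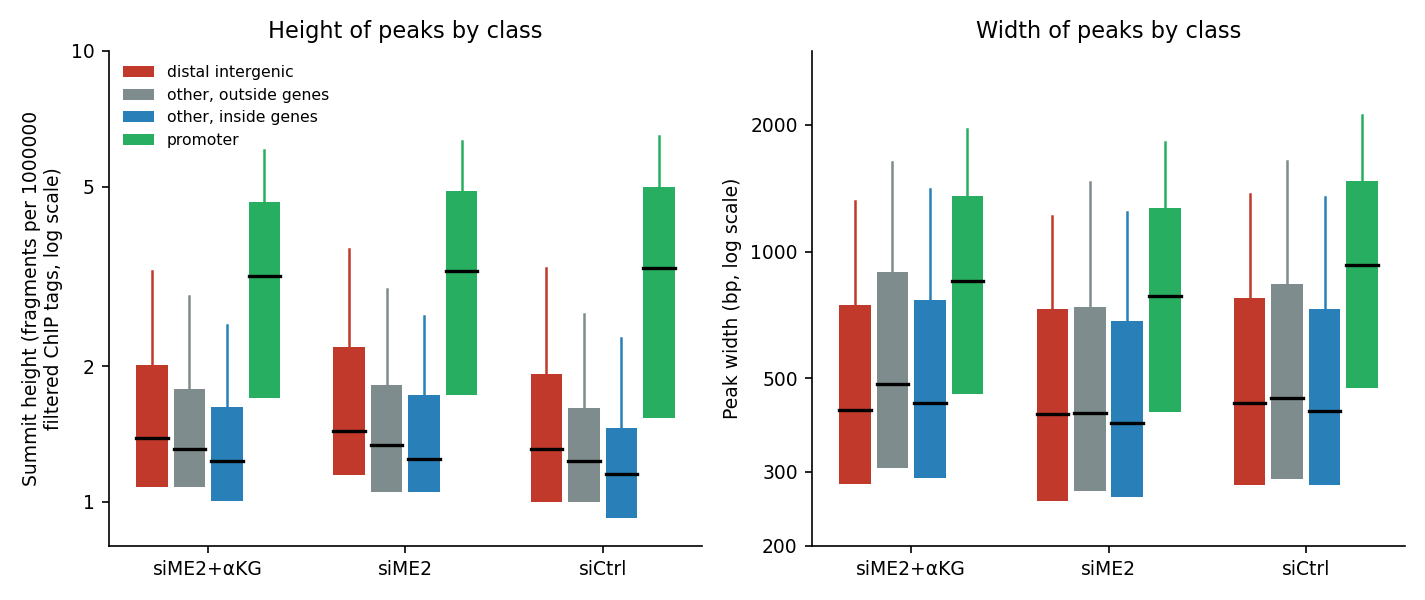
Height of the summit (fragments per 1000000 filtered tags, log axis) and width (bp, log axis) of distal peaks, other peaks outside genes, other peaks inside genes and promoter peaks in siME2+αKG, siME2 and siCtrl. Bars run over the middle quartiles, the black line is the median and the thin line reaches the 90th percentile. Distal peaks have medians of 1.39, 1.44 and 1.31, under the promoter medians of 3.16, 3.26 and 3.31 in the same order.

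Most distal peaks lay within 25 kb of a gene edge. Between 5 and 10 kb from the nearest gene edge lay 40.5% of siME2+αKG members, 41.1% of siME2 members and 41.4% of siCtrl members. Between 10 and 25 kb lay 39.7%, 37.8% and 38.9%. Farther than 100 kb lay 26 members in siME2+αKG (2.66%), 22 in siME2 (2.12%) and 28 in siCtrl (2.28%). Just inside the limit, at 5 to 6 kb, there were 129, 132 and 147 peaks with median heights of 1.31, 1.34 and 1.15 per 1000000 tags. Just outside it, at 4 to 5 kb, there were 170, 208 and 238 with medians of 1.35, 1.34 and 1.23. Of the 1605 loci, the nearest edge was the far end of a protein-coding gene for 439 (27.4%) and its start for 300 (18.7%), and the rest were nearest to an edge of a long non-coding RNA or another gene.

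The label was checked against a second annotation and against copies of the sequence. A RefSeq promoter (GRCh38.p14, matched by its sequence) lay within 1 kb of 60 of the 1605 loci, or 3.74%, so these are promoters in that annotation. The summit sequence of 114 loci, or 7.1%, occurred elsewhere in the genome at 95% identity or more, against 4.39% of siCtrl peaks that were not distal. For 66 of those 114 loci a copy lay inside a gene. Reads from such copies cannot be told apart, and these loci are marked where they are named.

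By height alone the list opened with loci near centromeres. The tallest 6 by fragments were each listed in 1 library: 5 in siME2, with 389 fragments at chr1:121485094-121485336, 381 at chr10:42596899-42597139, 351 at chr10:42599625-42599827, 330 at chr10:42385043-42385267 and 238 at chr2:92269398-92269601, and 1 in siCtrl, with 240 at chr10:42391540-42391754. The authors' fold enrichment over input there was 1.34 to 2.09, and the local input background was between 70.6 and 258 times the median of its list. Loci with a background over 3 times that median are called high-background below. Such distal peaks numbered 20 in siME2+αKG (2.05%), 8 in siME2 (0.771%) and 5 in siCtrl (0.408%). Among peaks that were not distal the shares were higher, at 3.06%, 1.18% and 0.752% in that order. The seventh, chr17:41399765-41401175, had 143 fragments in siME2+αKG, 118 in siME2 and 141 in siCtrl over a background 24.7 to 31.0 times the median.

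Once high-background loci were set aside, the tallest loci were listed in every library and were, with 1 exception, CpG-rich. Of the 15 tallest such loci, 15 were in all 3 lists and 14 were CpG-rich, meaning at least 50% GC and an observed over expected CG ratio of at least 0.6 in the 201 bp around the summit. Their GC content was 47.3 to 80.1%, none of these 15 matched a RefSeq promoter, and 2 had other copies. Peaks of other classes with at least 50 fragments were also nearly always in the other lists, with shares given further on. This set of 15 was chosen after its values were seen. Its members are given next by the gene that lies nearest.

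The tallest, chr5:70585005-70586499, had 134 fragments in siME2+αKG, 103 in siME2 and 131 in siCtrl, and lay 165.6 kb upstream of BDP1, a subunit of the RNA polymerase III factor TFIIIB, with 6 copies of its summit sequence. The locus downstream of the start of TMEM106A, chr17:41391901-41395300, had 96, 93 and 100 fragments and was the 1 of the 15 that was not CpG-rich. The DDIT4 locus, chr10:74054765-74058833, had 92 fragments in siME2+αKG, 91 in siME2 and 93 in siCtrl. These 3 loci were of near-equal height in siME2+αKG and siCtrl, and their siME2 counts came from the library with the fewest tags.

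The locus 39.6 kb downstream of the start of C2orf42, chr2:70364553-70369751, had 93 fragments in siME2+αKG, 74 in siME2 and 102 in siCtrl. The locus 148.2 kb upstream of NTMT1, an N-terminal methyltransferase, at chr9:132222748-132223900, had 91, 72 and 102. The LSM14A locus, chr19:34625006-34626572, had 81, 72 and 84. Loci close to a regulator's gene included 1 that lay 7.7 kb upstream of SSPN and 5.74 kb from BHLHE41, a repressor of the circadian clock, with 74, 71 and 77 fragments. Another, nearest to RAB11FIP4, lay 10.2 kb from the microRNA gene MIR193A and had 84, 64 and 75. The siME2 value was the lowest of the 3 at each of these loci before division by the tag number. After that division it was the highest at the LSM14A and SSPN loci and lay between the others at RAB11FIP4. It remained the lowest at the C2orf42 and NTMT1 loci.

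**Figure D2:**
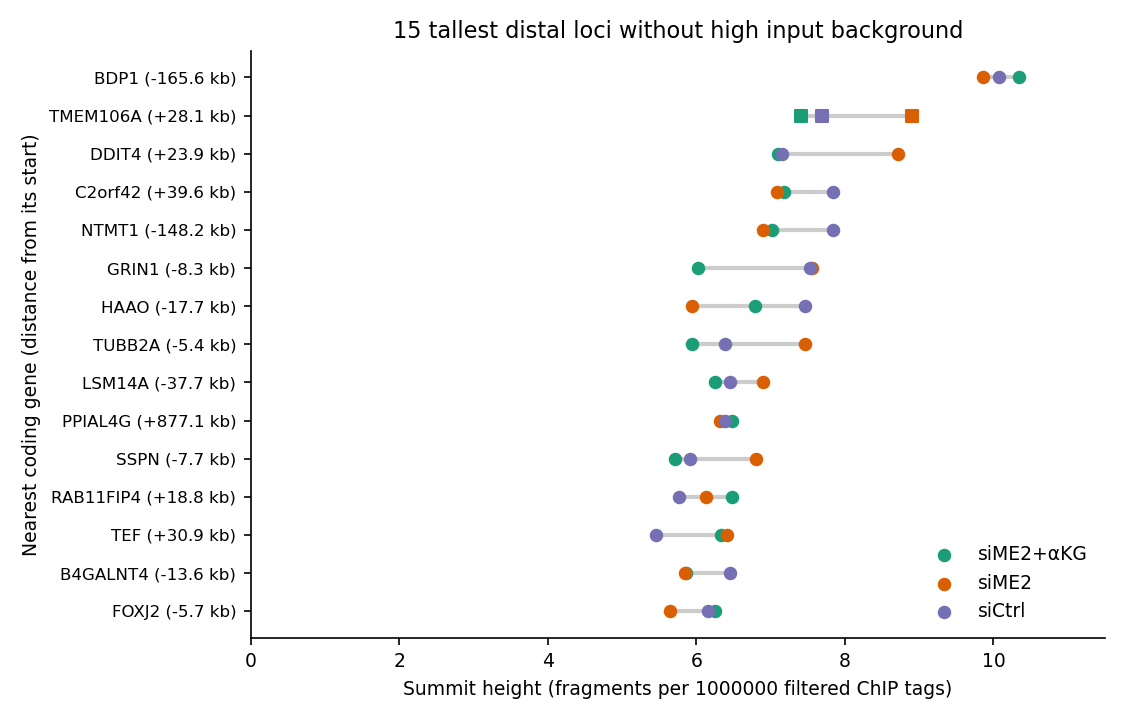
The 15 tallest distal loci with a background that is not high, by nearest gene, with summit height in fragments per 1000000 filtered tags in siME2+αKG, siME2 and siCtrl. Circles are CpG-rich loci and the square marker is the 1 locus, at TMEM106A, that is not, and the mean heights run from 6.02 to 10.1.

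The share of CpG-rich summits was higher among tall than among low distal peaks. CpG-rich summits made up 23.3% of siME2+αKG members (20.6 to 26.0), 23.2% of siME2 members and 21.3% of siCtrl members. Windows 2 kb away on either side gave 2.92%, 2.94% and 2.61%, peaks inside genes gave 14.9%, 15.04% and 14.1%, and promoter peaks gave 71.2%, 71.8% and 70.4%. Among distal peaks of 7 to 11 fragments the share was 6.49%, 8.62% and 7.19%, and among those of at least 50 it was 67.6%, 73.9% and 64.7%. Peaks inside genes had a like gradient, at 7.13% in the lowest and 73.3% in the highest siME2+αKG group. Per 1000000 tags, 121 loci averaged at least 3 and were not high-background, and 79 of them (65.3%) were CpG-rich while 7 (5.79%) matched a RefSeq promoter.

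The 301 CpG-rich loci differed from the other 1304 in more than height. They had a median width of 686 bp against 382 bp, and 65.8% of them were in all 3 lists against 29.9%. A RefSeq promoter matched 25 of the 301 and 35 of the 1304. Of the 301, 54 (17.9%) belonged to a cluster of at least 3 loci with gaps of at most 10 kb, against 538 of the 1304 (41.3%). Height is confounded with this split, because CpG-rich loci were the taller ones. Under 1.5 fragments per 1000000 tags the clustered shares were 20.3% of CpG-rich and 43.9% of other loci, from 1.5 to 3 they were 6.32% and 35.3%, and from 3 up 27.3% and 22.6%, where the difference was turned round. The shares in all 3 lists were 24.6% and 15.1% in the lowest of these groups and 85.3% and 72.9% in the middle one.

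Letters of the AP-1 motif, TGANTCA, had no higher share in the 201 bp around distal summits than 2 kb away, and a higher share just outside those windows. In the 201 bp they were found at 4.41% of siME2+αKG, 5.30% of siME2 and 6.04% of siCtrl summits, against 6.25%, 5.64% and 6.40% of windows 2 kb away. They were then searched in 150 bp windows lying 100 to 250 bp either side of the summit, a measure chosen after the values were seen. There they were found in 8.97% of the windows beside siME2+αKG members (7.73 to 10.3), 9.39% beside siME2 members (8.17 to 10.7) and 10.8% beside siCtrl members (9.64 to 12.1). In windows of the same length 2 kb away they were found in 5.02%, 4.05% and 4.73%, and in the 150 bp on the summit in 2.77%, 2.79% and 4.32%. Beside peaks inside genes the shares were 5.39%, 5.68% and 5.91%, and beside promoter peaks 2.35%, 2.38% and 2.60%. Peaks inside genes had 2.89%, 2.96% and 3.43% on the summit and 4.22%, 3.98% and 4.29% at 2 kb. Other peaks outside genes had 5.49%, 5.68% and 5.70% beside the summit. On the summit these had 2.94%, 3.09% and 2.86%, and at 2 kb 3.82%, 4.49% and 4.01%. The dip on the summit and the rise beside it were thus also found in these classes, with a smaller rise. A match describes the letters and is not a bound site.

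The motif belonged mainly to the loci that were not CpG-rich. Over those 1304 loci, 302 of 2608 windows beside the summit held a match (11.6%, 10.4 to 12.9), against 52 of 1304 on the summit (3.99%) and 116 of 2608 at 2 kb (4.45%). Beside CpG-rich summits the share was 3.82%. Within 250 bp of the summit, 348 of the 1304 loci (26.7%) held at least 1 match and 67 (5.14%) held at least 2, against 375 of 2608 points 2 kb away (14.4%) with at least 1. Loci in all 3 lists had a match in 14.1% of flanking windows and loci in 1 list in 9.48%. In 100 bp windows along these loci, high-background ones left out, the share was 9.55% at 200 bp to the left, 2.25% at the summit, 8.85% at 200 bp to the right, and 3.26% and 3.34% at 1000 bp. The authors' estimated fragment lengths were 221, 201 and 211 bp, close to that offset, and their part in the pattern was not tested.

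Other motifs were searched on both strands in the same windows. TEAD letters, GGAATG, were found in 9.63% of windows beside siME2+αKG, 10.7% beside siME2 and 9.71% beside siCtrl summits, against 7.99%, 7.61% and 8.16% at 2 kb. The ETS motif CCGGAAG, of a factor family known from CpG island promoters, was in 4.15% of windows beside CpG-rich summits and in 0.997% of those 2 kb away. On siCtrl summits the TATA letters TATAAA were found in 3.997% and the GATA letters AGATAA in 3.67%, against 10.8% and 8.93% at 2 kb. Median GC at the summits was 54.2%, 55.2% and 54.2%, against 46.3% at 2 kb in siCtrl, and the part of GC content in these shares was not tested.

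**Figure D3:**
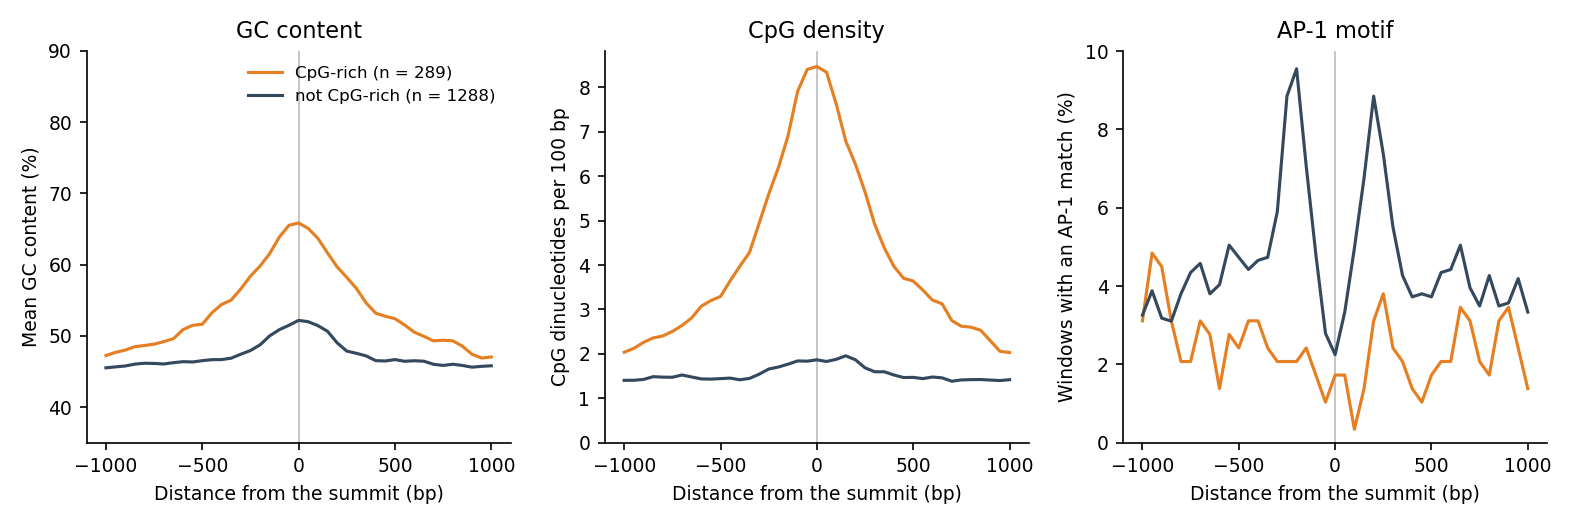
Mean GC content (percent), CG dinucleotides per 100 bp and share of windows with an AP-1 match (percent) in 100 bp windows taken every 50 bp from the summit of distal loci, for 1288 loci that are not CpG-rich and 289 that are, high-background loci left out. At the summit the mean GC is 65.8% in CpG-rich and 52.2% in other loci, and the AP-1 curve of the loci that are not CpG-rich reaches 9.55% at 200 bp to the left and 8.85% at 200 bp to the right, with 2.25% at the summit.

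Over the 3 lists, 588 of the 1605 loci (36.6%) were listed in every library. They had a median height of 1.91 fragments per 1000000 tags and a median width of 943 bp. Loci of 1 library were lower and narrower: 173 were listed in siME2+αKG alone and 188 in siME2 alone, with median heights of 1.00 and 1.05, and 380 in siCtrl alone, with 1.00 and a width of 283 bp. The pairs held 47 loci in siME2+αKG and siME2, 105 in siME2+αKG and siCtrl, and 124 in siME2 and siCtrl. Of 121 loci that averaged at least 3 per 1000000 tags with a background that was not high, 121 were in all 3 lists. Tall peaks of other classes were also nearly always listed elsewhere. Of those with at least 50 fragments, at most 0.0153% at promoters and 0.220% inside genes were missing from another list. Presence of the tall loci is thus not particular to distal ones. Loci of 1 library with at least 25 fragments numbered 3 in siME2+αKG, 6 in siME2 and 4 in siCtrl, of which 0, 5 and 1 were high-background.

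Between pairs of lists, the share of peaks missing from the other list was higher among distal peaks than among all peaks, and lower than among peaks inside genes, in each of the 6 directions. Of siME2 members 243 of 1038 (23.4%, 20.9 to 26.1) had no siCtrl peak, against 17.1% of all siME2 peaks. Of siCtrl members 496 of 1226 (40.5%) had no siME2 peak, against 31.1% of all siCtrl peaks. Of siME2+αKG members 307 of 976 (31.5%) had no siME2 peak, against 25.2% of all siME2+αKG peaks. Of siME2 members 341 of 1038 (32.9%) had no siME2+αKG peak, against 21.3% of all. Of siME2+αKG members 225 of 976 (23.1%) had no siCtrl peak, against 18.9% of all. Of siCtrl members 513 of 1226 (41.8%, 39.1 to 44.7) had no siME2+αKG peak, against 29.2% of all. In the same order of directions, peaks inside genes were missing at 29.7%, 48.1%, 42.7%, 34.6%, 33.3% and 43.7%, and promoter peaks at 7.18%, 15.3%, 10.8%, 10.4%, 7.20% and 15.1%. These comparisons share libraries, so they are not independent of each other.

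Missing members were low. Their median height was 11 to 14 fragments over the 6 directions, against 17 to 23 for shared members, and 4 to 11 per direction had at least 25 fragments. At equal height most of their missing shares lay near those of other classes. An exception was siCtrl members of 16 to 24 fragments, of which 150 of 390 (38.5%, 33.6 to 43.5) had no siME2+αKG peak, against 28.9% of promoter peaks and 27.3% of peaks inside genes of that height. Another was siME2 members of 7 to 11 fragments, of which 165 of 232 (71.1%, 64.8 to 76.9) had no siME2+αKG peak, against 57.5% and 58.1%. Of 46 siME2 members with at least 50 fragments, 5 were missing from siME2+αKG, and these were the siME2 loci near centromeres named above.

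**Figure D4:**
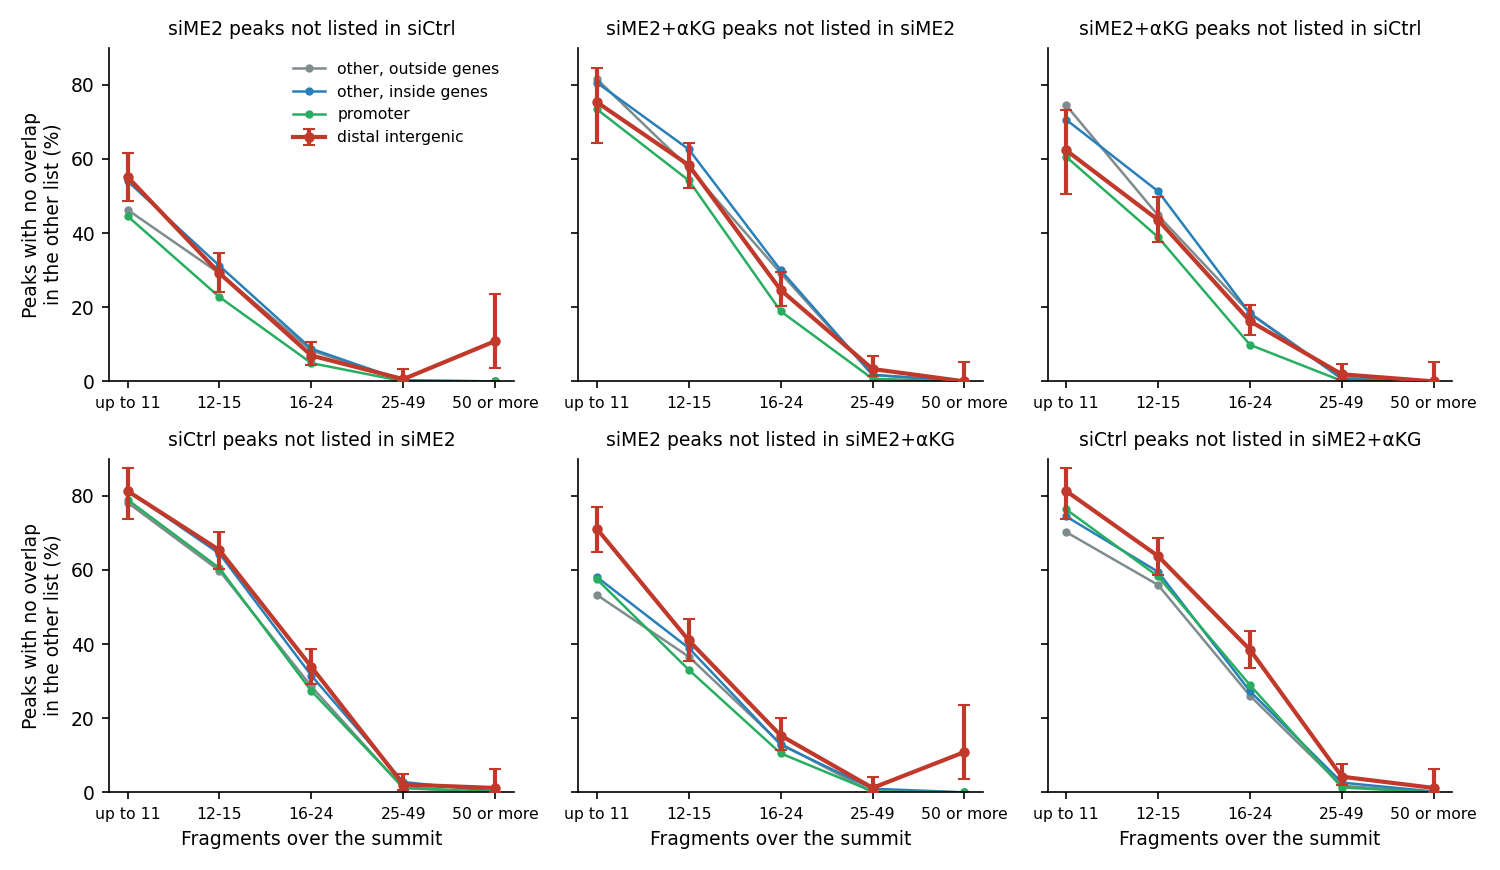
Share of peaks with no peak in the other list (percent) against summit height in fragments, for distal peaks and other classes, in each of the 6 directions. Error bars are exact 95% intervals of the distal shares and height groups with fewer than 20 peaks are not drawn. The distal share is lower in each taller group except from 25 to 49 to at least 50 fragments in siME2, where 5 of 46 are missing, and for siCtrl peaks not in siME2+αKG it is 38.5% at 16 to 24 fragments.

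Loci listed in 1 library of a pair were named by height, with high-background ones left out. Those in siME2 and not in siCtrl were led by a locus 129.96 kb upstream of LPCAT1, a phospholipid acyltransferase, with 25 fragments in siME2 and 3 copies of its sequence. The CTBP2 locus, 70.7 kb upstream of the gene of a transcriptional corepressor, had 15 fragments in siME2+αKG and 19 in siME2, with no peak in siCtrl. A locus 21.7 kb downstream of the start of IL1B, the gene of a proinflammatory cytokine, had 18 in siME2+αKG and 19 in siME2, also with no siCtrl peak. Those in siCtrl and not in siME2 included the TUBB2B locus, 17.6 kb downstream of the start of a β-tubulin gene, with 26 fragments in siCtrl and no peak in either other library. A locus 16.7 kb upstream of LAMP2, of a lysosomal membrane protein, had 28 in siCtrl alone. A locus at ZSWIM4 had 18 in siME2+αKG and 30 in siCtrl.

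Between siME2+αKG and siME2, a locus at TFAP2A, of a developmental transcription factor, had 27 fragments in siME2+αKG and 18 in siCtrl, with no siME2 peak. A locus at RNF212 had 29 and 24 in the same libraries. In the other direction a locus at ATP10A, a phospholipid flippase, had 26 in siME2 and 21 in siCtrl, and a locus at TKT, the pentose phosphate enzyme transketolase, had 23 in siME2 and 17 in siCtrl. Against siCtrl, a locus 24.5 kb upstream of WNT11, a WNT ligand, had 30 fragments in siME2+αKG and 13 in siME2. A locus at H2AC12, a histone H2A gene, had 15 in siME2 and 30 in siCtrl with no siME2+αKG peak. The highest of such loci, background not high, had 32 fragments, against a lowest listed summit of 7 or 8.

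Heights were compared where a locus held exactly 1 peak of each list with both summits inside it. The log2 ratio of fragments per 1000000 tags had a median of -0.01 over 566 loci for siME2 over siCtrl, -0.07 over 496 for siME2+αKG over siME2 and -0.08 over 553 for siME2+αKG over siCtrl. For all peaks, distal or not, a pair was 2 peaks that each overlapped only the other, without the condition on summits. Medians over all these pairs were -0.01, -0.07 and -0.09. For siME2 over siCtrl, 28 loci (4.95%) were past 1.5-fold higher and 28 (4.95%) past 1.5-fold lower, against 3.5% and 4.11% of all pairs. For siME2+αKG over siME2, 24 (4.84%) were higher and 44 (8.87%) lower, against 3.14% and 5.42%. For siME2+αKG over siCtrl, 24 (4.34%) were higher and 40 (7.23%) lower, against 2.54% and 4.89%. Centred on the median of all pairs, siME2+αKG over siME2 had 30 loci higher and 28 lower, and siME2+αKG over siCtrl had 32 higher and 26 lower, so the larger number of lower calls was turned round by that centring. In the order of the comparisons, the 95% counting interval lay above 0 for 1 (0.177%), 2 (0.403%) and 1 (0.181%) of the loci, against 0.498%, 0.334% and 0.172% of all pairs. It lay below 0 for 3 (0.53%), 8 (1.61%) and 10 (1.81%), against 0.973%, 1.91% and 2.12%. The distal shares were thus near or under those of all pairs.

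Up to 3 loci per comparison and direction whose interval left out 0, those with the largest ratios, are given by their counts. They are the extremes of 496 to 566 loci per comparison, and the intervals were not adjusted for that number. Some intervals would leave out 0 by counting error alone, so the order of the libraries at a named locus is a description only. The locus 23.5 kb upstream of FZD2, a WNT receptor, had 19 fragments in siME2+αKG, 27 in siME2 and 17 in siCtrl, a log2 ratio of 0.98 for siME2 over siCtrl (0.06 to 1.95). The ARHGAP26 locus, 37.2 kb downstream of the start of a RhoA-inactivating protein gene, had 33, 24 and 55, a ratio of -0.88 for siME2 over siCtrl (-1.64 to -0.16) and -0.73 for siME2+αKG over siCtrl (-1.40 to -0.08). The locus at PBDC1 had 21, 15 and 37, a ratio of -0.99 for siME2 over siCtrl (-1.96 to -0.09), and 2 copies of its sequence. The locus nearest to SERF1A had 67, 39 and 74, a ratio of -0.61 for siME2 over siCtrl (-1.21 to -0.03), and 10 copies. Both ARHGAP26 and PBDC1 were highest in siCtrl and lowest in siME2.

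The locus 9.1 kb upstream of ID1, an inhibitor of bHLH transcription factors, had 34 fragments in siME2+αKG, 13 in siME2 and 30 in siCtrl, a log2 ratio of 1.08 for siME2+αKG over siME2 (0.12 to 2.12). A locus 113.6 kb upstream of FAT1, an atypical cadherin, had 32, 13 and 24, a ratio of 0.99 (0.02 to 2.04), and lay at RefSeq promoters of uncharacterised loci. Both were lowest in siME2. The FAT1 locus whose sequence is shown, 118.6 kb upstream, had 14 in siME2+αKG, 13 in siME2 and 29 in siCtrl. Its ratio was -1.04 for siME2+αKG over siCtrl (-2.08 to -0.08). Whether the neighbouring FAT1 loci differ in their pattern was not tested.

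The locus 41.5 kb downstream of the start of YAP1, the Hippo pathway coactivator, had 12 fragments in siME2+αKG, 23 in siME2 and 20 in siCtrl, a log2 ratio of -1.25 for siME2+αKG over siME2 (-2.39 to -0.18). The locus 6.5 kb upstream of CHMP6, a membrane-remodelling protein, had 14, 25 and 34, with -1.15 over siME2 and -1.27 over siCtrl (-2.29 to -0.34). The locus 25.2 kb upstream of SMAD7, an inhibitor of TGF-β signalling, had 21, 34 and 43, with -1.01 over siME2 and -1.03 over siCtrl (-1.86 to -0.24). These 3 loci were lowest in siME2+αKG. The locus 21.9 kb upstream of TOP1, a DNA topoisomerase, had 24, 14 and 10, a ratio of 1.27 for siME2+αKG over siCtrl (0.15 to 2.50), and matched a RefSeq promoter of an uncharacterised locus.

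Distal loci often lay in rows. With gaps of at most 10 kb there were 132 clusters of at least 3 loci, which held 592 of the 1605 loci (36.9%, 34.5 to 39.3), and 44 clusters held at least 5. The median span was 5.44 kb, 115 clusters had a peak in every library, and 117 had the same nearest gene throughout. Clustered loci had a median height of 1.15 per 1000000 tags, against 1.31 for the 679 loci that stood alone, and 33.8% of them were in all 3 lists against 40.5%. A broad stretch of enrichment can be listed as several peaks where it dips under the calling limit. The part of such breaks and of depth in these counts was not tested. With loci of all 3 lists alone the clusters numbered 23.

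The longest row lay upstream of SMURF2, where 19 loci spanned 62.1 kb at chr17:62666911-62728974. Members there numbered 12 in siME2+αKG, 22 in siME2 and 13 in siCtrl, and covered 14536, 15854 and 15392 bp. The locus at 18.9 kb had 66 fragments in siME2+αKG, 41 in siME2 and 50 in siCtrl, that at 44.2 kb had 52, 38 and 53, and that at 50.6 kb had 39, 24 and 48. The SMURF2 promoter itself had 139, 104 and 139. The number of siME2 peaks was thus the highest of the 3 while the covered length differed little, and 7 of the 19 loci were in all 3 lists.

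The next clusters by number lay near HAPSTR1, with 12 loci over 20.4 kb, between DDIT4 and DNAJB12, with 10 over 37.2 kb, near MYO16, with 10, and near RAD23B, a nucleotide excision repair gene, with 10, of which 0 were in all 3 lists. MYO16 had a promoter peak in no list. The CCN1 row, chosen after its values were seen, held 9 loci over 24.6 kb at chr1:86071488-86096082, 5 of them in all 3 lists. Its loci at 47.8, 26.3 and 31.3 kb had 45, 41 and 29 fragments in siME2+αKG, 36, 27 and 24 in siME2 and 45, 37 and 37 in siCtrl, and the CCN1 promoter had 158, 113 and 175. The widest loci were led by 1 near KRT80, an epithelial keratin gene, of 7220 bp with 67, 57 and 67 fragments and a high background. It was followed by loci near ELN, the elastin gene, of 6771 bp with 34, 18 and 35, GPR132 of 6241 bp, SMURF2 of 6198 bp and CAMSAP1 of 5928 bp.

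**Figure D5:**
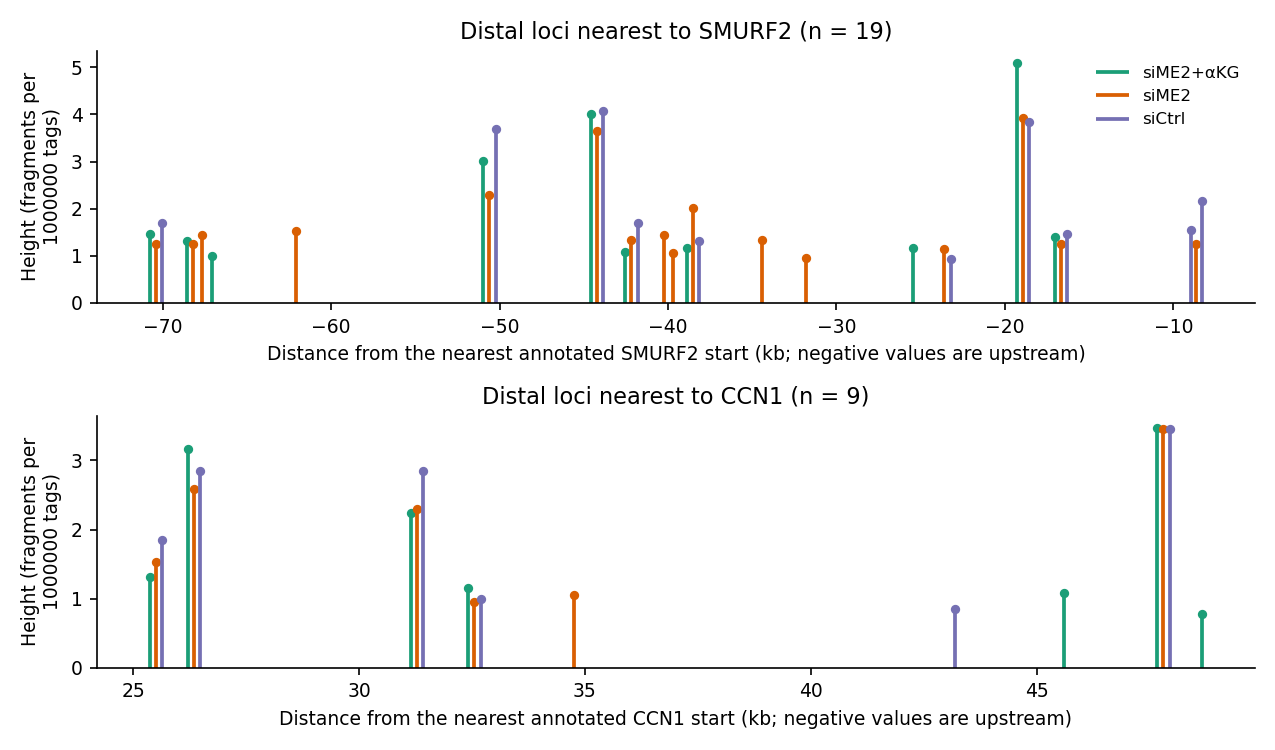
Distal loci around SMURF2 and CCN1 by distance from the gene start (kb), with summit height in fragments per 1000000 filtered tags in siME2+αKG, siME2 and siCtrl, drawn where the summit is inside the locus. The tallest SMURF2 locus has heights of 5.09, 3.93 and 3.84 in that order.

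The nearest protein-coding start was at a median of 27.7 kb (quartiles 13.5 and 73.4) over the 1605 loci, and at more than 100 kb for 311 (19.4%). Loci lay upstream of that start in 939 cases (58.5%) and downstream in 666. The rule for members leaves out gene bodies, which lie downstream of a start, so this split is shaped by the rule. The nearest gene had a promoter peak in the same library for 76.7% of siME2+αKG members, 79.3% of siME2 members and 79.0% of siCtrl members, where a gene with several loci counts at each. Counted by gene, 72.8%, 75.6% and 76.1% of the nearest genes had one, against 61.0%, 61.6% and 63.1% of 20098 protein-coding genes. In all, 889 genes were nearest to a locus, 570 of them to 1 locus and 52 to at least 5. SMURF2 and MYO16 had 19 each, HAPSTR1 17, DPYD, of pyrimidine breakdown, 16, TFAP2A 15, and the growth regulator KLF6 11.

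Distal loci were also counted by lists of genes nearest to them, beside 889 of 20098 protein-coding genes (4.42%) nearest to any locus and 913 (56.9%), 947 (59.0%) and 1197 (74.6%) of the 1605 loci listed in siME2+αKG, siME2 and siCtrl. Of 18 YAP and TEAD target genes 9 were nearest to a locus, 25 loci in all, with a peak at 19 of them in siME2+αKG, 13 in siME2 and 18 in siCtrl. Of 22 AP-1 and immediate early genes 7 were, with 28 loci, listed at 16, 12 and 22. Of 21 mesenchymal genes 6 were, with 18 loci, listed at 9, 8 and 14. Of 16 hepatocyte genes 1 was, FOXA2, with a locus 178.1 kb upstream that had 11 fragments in siME2 and 22 in siCtrl. Endothelial and leukocyte markers had 0 loci. These lists were chosen with earlier results known, and their genes were not matched to others for the space around them.

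Among immediate early genes, the locus 10.8 kb upstream of JUND, an AP-1 subunit gene, had 47 fragments in siME2+αKG, 37 in siME2 and 55 in siCtrl and matched a RefSeq promoter of an uncharacterised locus. A locus 13.8 kb downstream of the start of KLF2, a zinc finger factor gene, had 35, 32 and 41, and 1 at 102.5 kb upstream of KLF6 had 25, 27 and 32. Among mesenchymal genes, a locus 55.9 kb upstream of CD44, the hyaluronan receptor gene, had 24, 29 and 31 and also matched a RefSeq promoter. Each of these 4 loci was listed in every library.

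Of 23 cell cycle genes 2 were nearest to a distal locus, with 3 loci. CCND1, the cyclin D1 gene that the study asked about, had a locus 86.0 kb upstream, chr11:69369878-69370146, with 22 fragments in siCtrl alone, and 1 at 52.9 kb with 9 fragments in siME2 and 14 in siCtrl. Neither was listed in siME2+αKG, and the CCND1 promoter had 90, 73 and 98 fragments in siME2+αKG, siME2 and siCtrl. Per 1000000 tags the CCND1 promoter heights were 6.95, 6.99 and 7.53 in that order, so siME2 was not below siME2+αKG. For comparison, the median distal siCtrl summit held 17 fragments and the lowest listed summits held 8, 7 and 8. CCND2, of cyclin D2, had a CpG-rich locus 105 kb upstream with 34, 28 and 42 fragments, and its promoter had 28, 17 and 33. Per 1000000 tags the CCND2 locus had 2.62, 2.68 and 3.23. The CCND2 promoter had 2.16, 1.63 and 2.54 on that scale, and remained lowest in siME2. No locus had ME2 as its nearest gene.

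By chromosome, chr1 held 181 loci and chr17 held 100, or 12.3 per 10 Mb, while chr18 held 18. Distal peaks were the largest share of the list on chr21, at 7.36% in siME2+αKG, 10.2% in siME2 and 10.3% in siCtrl.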

How the data were processed

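Pol II was measured by ChIP-seq in SK-Hep1 cells, with 1 ChIP and 1 input library for each of siME2+αKG, siME2 and siCtrl. Samples were grouped by their labels, and the inputs' own files were not used here. Alignment tools in the submitters' processing notes are Bowtie2 2.3.5.1, beside the peak caller MACS2 2.2.6. The peak files' headers give MACS 2.2.7.1 instead, and which release was used is unknown. Each list came from 1 ChIP library and its input, per the file headers, at a p-value threshold of 1e-05, with 150 bp tags and model fold limits of 10 and 30. Positions are on hg19 per the labels' protocols.

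The deposited pileup is a signal, the extended ChIP fragments over the summit after the authors' scaling to the smaller library. That scaling reached the siME2+αKG list alone, by 0.900, and dividing by it gave fragments within 0.00553 of a whole number. The deposited fold enrichment is a ratio of pileup to local background, each with 1 added, and the deposited −log10 p and −log10 q values are the caller's. Fold, p and q, computed by the authors per peak, served here to rank or filter within a list. The ChIP libraries held 10445326 to 13006504 filtered tags, and heights were divided by that number alone.

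Genes came from GENCODE release 44 mapped to GRCh37, on chromosomes 1 to 22 and X. Members were peaks whose summit lay outside 63827 genes and over 5 kb from each. Sharing 1 bp with any peak of another list counted as presence there. Height ratios used loci with exactly 1 peak of each list, both summits inside, a condition added after the files were seen. The pairs over all peaks did not carry that condition on summits. A promoter peak lay within 1 kb of a start site of 1 of 20098 protein-coding genes. Sequence windows of 201 bp around summits were read from GRCh37, and copies were found with minimap2 2.31. RefSeq promoters, of GRCh38.p14, were placed by their sequence, and their coordinates were not used. Motif letters were searched on both strands. Beside those spelled out in the report (AP-1, TEAD, ETS, TATA and GATA), they included CAGGNGGC for CTCF, TTGCNCAA for C/EBP, TGTGGT for RUNX proteins, TGTTTAC for forkhead factors, GCGCATGC for NRF1, CACGTG for the E-box, and TGACGTCA for CREB. The share of repeats was not analysed.

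The named loci were the 10 tallest, the 5 widest, the 5 largest clusters, per pair of lists the 5 tallest absent loci with −log10 q of at least 5 and up to 3 loci of extreme ratio whose interval left out 0, up to 3 per gene list, and those of CCND1 and ME2. Not every locus or motif taken is reported here. High-background loci were named among the tallest by fragments and among the widest. They were passed over in the set of 15 tallest and among the loci absent from a list. The members, lists and measures were chosen with earlier results of these data known. The scripts (Python 3.11.15, scipy 1.17.1, pandas 2.3.3, pysam 0.24.0) were tested on simulated data. Alternatives changed the distance, gene types, height, q, overlap, cluster gap, fold, centring and window size.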

Additional observations from a re-analysis of the deposited data

Results flagged for a closer look

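Peaks were also listed on unplaced or unlocalised sequences of the assembly, which lie outside the chromosomes compared and carry no position relative to most genes. There were 53 in siME2+αKG, 44 in siME2 and 51 in siCtrl, and the tallest held 117, 86 and 118 fragments in that order. They were listed in siCtrl, the control library, at about the same number, and were not used in any comparison. No group had the 4 samples that a test for outlying samples needs.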

How the results depend on the processing

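No paired analysis was possible because each condition had 1 library, and no replicate could be left out for the same reason. Of 215 alternative values over 45 results, 117 stayed close to the reported value and 98 moved. Among 21 alternative values of the median log2 height ratios, all of them near 0 and without a test, 6 changed sign. Values follow in the order siME2+αKG, siME2 and siCtrl. Members numbered 2822, 2845 and 3399 (9.75%, 9.75% and 10.7% of the list) at a distance of 1 kb, 581, 611 and 719 (2.01%, 2.09% and 2.27%) at 10 kb, and 74, 73 and 87 (0.256%, 0.250% and 0.275%) at 50 kb. With protein-coding and lncRNA genes alone they made up 4.35%, 4.61% and 4.98%. With at least 1.5 fragments per 1000000 tags they numbered 429, 501 and 464 (2.64%, 2.90% and 2.91%). The median height of siME2+αKG members was 1.51 at 50 kb. With −log10 q of at least 5 the median siCtrl height was 1.35, and the median widths were 457 bp in siME2+αKG and 463 bp in siCtrl. At 50 kb the siCtrl width was 409 bp.

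Shares of missing members follow in the order siME2 not in siCtrl, siCtrl not in siME2, siME2+αKG not in siME2, siME2 not in siME2+αKG, siME2+αKG not in siCtrl and siCtrl not in siME2+αKG. When an overlap had to cover 50% of the member they were 30.8%, 53.3%, 42.6%, 41.8%, 31.5% and 53.2%. With any peak within 1 kb they were 14.9%, 27.3%, 19.1%, 22.7%, 13.4% and 29.1%. With −log10 q of at least 5 they were 20.1%, 37.3%, 26.5%, 29.1%, 18.5% and 39.0%. With at least 1.5 fragments per 1000000 tags they were 5.19%, 6.90%, 5.83%, 10.2%, 3.26% and 9.70%, so most missing members were low. At 50 kb the siME2 share not in siCtrl was 28.8% and the siME2+αKG share not in siCtrl 32.4%.

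Centred on the median of all pairs, the median log2 ratio was 0.000266 for siME2+αKG over siME2, with 30 higher and 28 lower, and 0.00565 for siME2+αKG over siCtrl, with 32 higher and 26 lower, where the reported numbers were 24 and 44 and 24 and 40. At 50 kb these medians were 0.0758 and 0.0622. The median of siME2 over siCtrl was 0.00928 centred and 0.000242 at 50 kb. At 50 kb, 1 locus was higher and 1 lower for siME2 over siCtrl, 5 and 3 for siME2+αKG over siME2, and 2 and 1 for siME2+αKG over siCtrl. Past 2-fold the numbers were 0 and 0, 1 and 3, and 2 and 3. Clustered loci made up 32.9% with gaps of 5 kb and 33.7% with siCtrl members alone. With loci of all 3 lists alone, a choice made after seeing the data, there were 23 clusters with 13.6% of those loci. The median distance to a start site with a peak in the same library was 44.5, 41.1 and 42.9 kb, and to any start for members at 50 kb 321, 386 and 274 kb.

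With stricter CpG limits (55% GC and a ratio of 0.65), also chosen after seeing the data, 17.5%, 18.2% and 16.2% of members were CpG-rich, and with 250 bp either side 18.4% of siCtrl members were. Windows 5 kb away were CpG-rich at 3.902% in siME2 and 3.51% in siCtrl. AP-1 letters, at 4.41%, 5.30% and 6.04% in 201 bp, were found in 1.54%, 2.22% and 2.69% of windows of 50 bp either side, and in 19.98%, 22.3% and 24.96% of those of 250 bp, which take in the flanks. The cause of these shifts was not tested beyond what each setting does by its construction. Depth limits the low members: the smallest listed summits held 7 or 8 fragments, and a height of that size carries a wide counting interval.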
